A study of Mus musculus with 30 samples.

Results

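Mnx1 is a homeodomain transcription factor of spinal motor neurons, and the regions described here are the places where it was found at distal, active enhancers in mouse motor neurons made from embryonic stem (ES) cells. They were selected on measured values, as the regions of the wild-type Mnx1 ChIP-seq list that overlapped, by at least 1 base, a region of the wild-type H3K27ac list and no region of the wild-type H3K4me3 list. There were 1501 such regions among 5793 Mnx1 regions in all, or 25.9%. The other Mnx1 regions were 3228 with H3K4me3 (55.7%) and 1064 with neither mark (18.4%). The regions were thus chosen by Mnx1 binding, H3K27ac and H3K4me3 of wild type, and those values describe them and are not findings. H3K4me1, H3K27me3, all lists of the HD knockout line, gene positions and RNA were not used.

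ChIP-seq measures where a protein or a histone mark sits on DNA, and RNA-seq measures transcripts. The ChIP-seq lists came from HD motor neurons, an Mnx1 knockout line (H3K27ac, H3K4me1, H3K4me3, H3K27me3 and H3K9me3), and from wild-type motor neurons (the same marks and Mnx1), with 1 list per mark and genotype. RNA-seq had 2 libraries each of HD and EH motor neurons (EH is another line given as an Mnx1 knockout), of wild-type motor neurons and of wild-type ES cells. All motor neurons were induced over 6 days from embryoid bodies, with 1 µM retinoic acid and 1 µM of the hedgehog agonist SAG, and in the last days also 1 µM DOX and 5 µM of the Notch pathway inhibitor DAPT. An EH ChIP-seq list was not analysed here. The labels do not say what HD and EH stand for, how the alleles were made, whether a line is 1 clone, or whether libraries of a group are separate cultures, so p-values measure the spread between these libraries, which may be technical. The antibodies named include one against GFP and none against Mnx1, and the peak names inside the wild-type H3K27ac list carry the letters KO against its label. Mnx1 RNA stood at 410 and 352 CPM in HD (counts scaled to the adjusted library total), 518 and 657 CPM in EH and 441 and 398 CPM in wild-type motor neurons, so counts per gene do not show the knockouts. The summed RNA of 25 spinal motor neuron genes was 4307 to 7676 CPM over the 6 motor neuron libraries, and 445 and 366 CPM in ES cells.

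Enhancers are stretches of DNA, often far from any gene, that raise the transcription of genes on the same chromosome. H3K4me1 marks enhancers in general, H3K27ac marks those that are active, H3K4me3 marks gene starts, and H3K27me3 and H3K9me3 mark repressed chromatin. Homeodomain factors such as Mnx1 bind short AT-rich sequences, and in motor neurons Mnx1 is known for keeping interneuron genes silent.

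Of the 1501 regions, 8 held a start site of the RefSeq table used here, and these are the ones whose sequence could be read. The windows run from 250 bases before to 50 bases after the start and are printed 5′ to 3′ on the strand of the gene (RefSeq, GRCm38.p6, the mm10 assembly). Capitals mark TAATNA, a short homeodomain core, on either strand. The start of Dct, a melanin pathway enzyme, lay 15 bases from the summit of its Mnx1 region, and its window is chr14:118052197-118052496 on the minus strand, inside the region chr14:118052020-118052531 with an enrichment of 4.41. The window of a start of Ctbp2, a transcriptional co-repressor, is chr7:133081811-133082110 on the minus strand. The third, Gm52797, an unnamed gene, had the most enriched region of the 8 (5.10) and its window is chr5:150131123-150131422 on the minus strand.
Dct: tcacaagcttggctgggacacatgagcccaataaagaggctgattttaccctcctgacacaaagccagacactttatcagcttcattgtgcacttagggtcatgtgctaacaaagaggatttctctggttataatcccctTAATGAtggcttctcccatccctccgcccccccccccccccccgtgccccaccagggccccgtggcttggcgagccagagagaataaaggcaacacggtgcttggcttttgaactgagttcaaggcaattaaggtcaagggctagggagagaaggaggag
Ctbp2: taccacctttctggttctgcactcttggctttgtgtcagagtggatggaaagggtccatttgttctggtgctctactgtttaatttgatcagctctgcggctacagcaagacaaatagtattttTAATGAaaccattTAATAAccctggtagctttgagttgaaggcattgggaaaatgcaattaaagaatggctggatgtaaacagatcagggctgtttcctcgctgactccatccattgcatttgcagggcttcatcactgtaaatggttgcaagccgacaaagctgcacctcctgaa
Gm52797: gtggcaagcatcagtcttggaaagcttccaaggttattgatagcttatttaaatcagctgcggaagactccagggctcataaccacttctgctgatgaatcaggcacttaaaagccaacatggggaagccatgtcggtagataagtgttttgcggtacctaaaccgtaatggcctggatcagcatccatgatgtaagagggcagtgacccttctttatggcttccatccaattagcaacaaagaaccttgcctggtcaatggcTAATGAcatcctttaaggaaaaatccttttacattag
TAATNA was present in 6 of the 8 windows and in 26.5% of 32817 windows of the whole table. TAATTA, a narrower core that TAATNA includes, was in 0 of the 8 and in 5.30% of all windows. The E-box CAGCTG was in 3 of the 8 and 16.3% of all windows, ATCGAT in 0 of the 8 and 0.900%, and CCCNNGGG in 0 of the 8 and 13.7%. Both strands were searched; a match is a stretch of letters and not a measured site, and the 8 were not drawn to stand for the other regions. Dct RNA was 4.48 and 4.80 CPM in HD and 0.618 and 0.930 CPM in EH, against 0.468 and 1.65 CPM in wild-type motor neurons, and its log2 fold change in HD was 2.13 ± 0.52 (SE, edgeR adjusted p = 0.332). Ctbp2 stood at 107 and 117 CPM in HD and 109 and 122 CPM in EH, against 103 and 105 CPM in wild type, with an edgeR adjusted p of 0.977 in HD and 0.367 in EH. Both genes were taken for their start sites, with their values in view.

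The regions were narrow and mostly modest in enrichment, which is the fold over background that the authors' peak caller gave. Enrichment ran from 2.39 to 12.28 with a median of 4.11, and width from 400 to 1546 bases with a median of 548. The least significant region had a -log10 q of 3.01, which is also the lowest of the whole Mnx1 list, so weaker binding was not listed. The H3K27ac regions beneath had a median enrichment of 3.38 and a median width of 1684 bases. H3K27ac covered 1076 regions whole (71.7%) and 24 over fewer than 50 bases (1.60%). At the edges of the rule, the smallest overlap with H3K27ac was 5 bases, while 28 of the 1064 regions with neither mark had H3K27ac within 200 bases. On the H3K4me3 side, 37 regions lay within 1 kb of an H3K4me3 region, the closest at 38 bases, and the median distance was 64.7 kb.

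The enhancer mark H3K4me1, which the choice did not use, lay over almost every one of the regions. In HD motor neurons 1474 of the 1501 overlapped H3K4me1 (98.2%), and in wild-type motor neurons 1484 (98.9%). Mnx1 regions with neither mark carried H3K4me1 at 80.8% in HD and 84.3% in wild type, those with H3K4me3 at 23.4% in HD and 37.2% in wild type, and the 6560 distal H3K27ac regions without Mnx1 at 90.6% in HD and 93.4% in wild type. Repressive marks were nearly absent: H3K27me3 lay over 0 of the 1501 in HD and 3 in wild type, and H3K9me3 over 0 in either genotype. They were rare in the other classes too. H3K27me3 lay over 0.38% of Mnx1 regions with neither mark in HD and 0.47% in wild type. At distal H3K27ac regions without Mnx1 the shares were 0.08% and 0.18%, and at Mnx1 regions with H3K4me3 2.04% and 5.73%. The highest H3K9me3 share in these classes was 0.46%. H3K4me3 appeared in HD at 8 of them (0.530%). By this mark, 98.9% of the regions in wild type bore out the name of distal enhancer. The choice asked for H3K27ac without H3K4me3, and such regions without Mnx1 carried H3K4me1 at 93.4% as well. The check is therefore not independent of the choice.

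**Figure D1:**
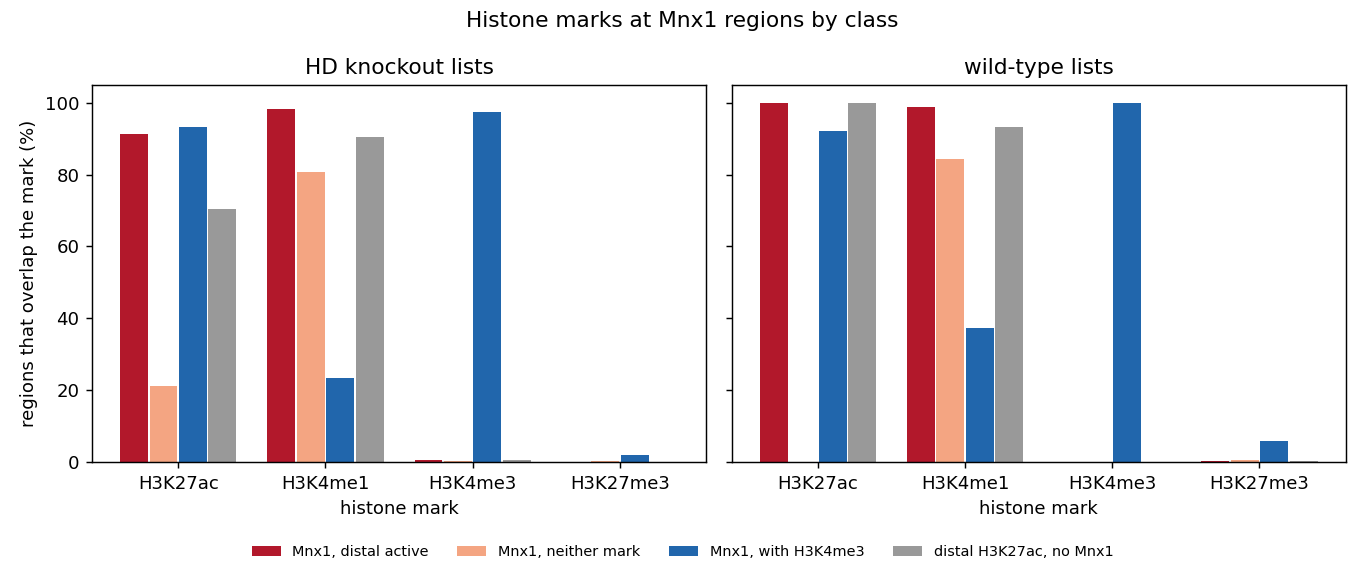
Share of regions (%) that overlapped each histone mark in the HD lists (left) and the wild-type lists (right), for distal active Mnx1 regions, Mnx1 regions with neither mark, Mnx1 regions with H3K4me3 and distal H3K27ac regions without Mnx1. Of the distal active Mnx1 regions, 98.2% carried H3K4me1 in HD and 98.9% in wild type; their H3K27ac and H3K4me3 in wild type were set by the choice.

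Most of these regions kept H3K27ac in the HD line. In HD motor neurons 1373 of the 1501 overlapped an H3K27ac region (91.5%) and 128 did not. Because the regions were chosen for wild-type H3K27ac, losses alone could be counted among them, so the distal H3K27ac regions of wild type are the measure to set beside. Of 1472 distal H3K27ac regions with Mnx1, 90.8% were in the HD list, and of 6560 without Mnx1, 70.6%. Counted both ways over the 2555 Mnx1 regions without H3K4me3 in either genotype, 224 had H3K27ac in HD only and 128 in wild type only, 1365 had it in both and 838 in neither.

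Stronger H3K27ac regions were more often found again in HD, and regions with Mnx1 were stronger. The distal H3K27ac regions were ranked by wild-type enrichment and split into quartiles. In the lowest quartile 67.1% of the regions with Mnx1 and 55.7% of those without Mnx1 were in the HD list. In the second quartile the shares were 83.1% with Mnx1 and 62.3% without, in the third 88.1% and 77.3% without, and in the highest 99.2% and 95.2% without. Mnx1 was on 7.40% of the regions of the lowest quartile, 11.2% and 17.6% of the next ones, and 37.1% of the highest. Within a quartile, regions with Mnx1 were also wider, with median widths of 620 bases with Mnx1 and 583 bases without in the lowest and 2347 and 1768 bases without in the highest; the part of width in the difference was not tested. By the strength of Mnx1 binding itself, 89.8% of the weakest quartile of the 1501 had H3K27ac in HD, 91.5% and 89.9% of the middle ones, and 94.7% of the strongest, whose enrichment was 4.92 or more. From the weakest to the strongest, the median wild-type H3K27ac enrichment of these quartiles was 3.28, 3.26, 3.2 and 3.81, and its part in the shares was not tested. Each mark and genotype had 1 list, so these shares have no replicate error.

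**Figure D2:**
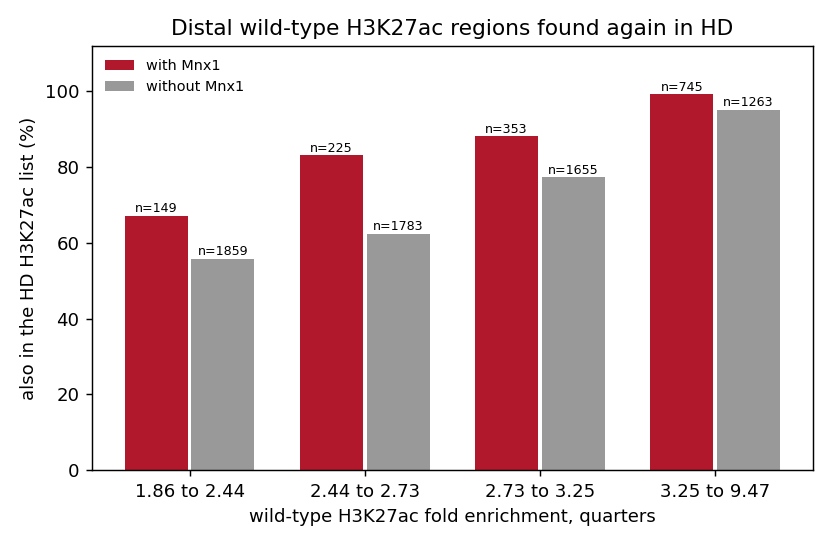
Share (%) of distal wild-type H3K27ac regions that overlapped the HD H3K27ac list, by quartile of wild-type H3K27ac fold enrichment, for regions with Mnx1 (left bar of each pair) and without Mnx1 (right bar). The share was higher with Mnx1 in each quartile, 67.1% against 55.7% in the lowest and 99.2% against 95.2% in the highest; n is the number of regions.

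The 128 regions without H3K27ac in HD sat on weaker wild-type H3K27ac, with a median enrichment of 2.61 and width of 695 bases, against 3.51 and 1811 bases for the 1373 that had it. Their Mnx1 enrichment was much the same, with medians of 3.99 and 4.11. The 8 with the most Mnx1 lay nearest to Gpat3, Nwd2, Lingo2, Fgfr1, Grid1, Oat, Pou3f1 and Tprg; these genes were taken with the values in view. The strongest, chr5:101107896-101108501 with an enrichment of 10.88, lies 208.8 kb from Gpat3, an enzyme of glycerolipid synthesis. Gpat3 RNA was 25.4 and 32.2 CPM in HD and 21.6 and 25.5 CPM in wild-type motor neurons. The region chr5:63738867-63739636 lies inside Nwd2, a gene for an NACHT and WD repeat protein. Nwd2 RNA was 9.47 and 10.8 CPM in HD, against 66.7 and 53.3 CPM in wild-type motor neurons. Nwd2 had another region, chr5:63616841-63617511, whose H3K27ac was in both genotypes. The region chr4:124520439-124521214 lies 136.4 kb from Pou3f1, a POU domain transcription factor that in mouse spinal cord marks groups of motor neurons. Pou3f1 RNA was 3.70 and 4.02 CPM in HD and 3.92 and 5.08 CPM in EH, against 21.8 and 23.0 CPM in wild-type motor neurons. Both knockout lines were thus well below wild type for Pou3f1, with log2 fold changes of -2.54 ± 0.19 in HD (SE, edgeR adjusted p = 0.0116) and -2.34 ± 0.18 in EH (SE, edgeR adjusted p = 0.00255), set against the same wild-type libraries. With a library left out, its adjusted p reached 0.241 in HD and 0.0482 in EH. Lingo2, Fgfr1, Grid1 and Oat had log2 fold changes between -0.28 and 0.40 in HD, with adjusted p of 0.643 or more, and Tprg had 0 counts in every HD and wild-type motor neuron library.

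The regions lay away from gene starts and were split between the insides of genes and the space between them. Only 39 of the 1501 were within 2 kb of an end of a protein-coding gene (2.60%), against 79.0% of the Mnx1 regions with H3K4me3 and 3.00% of those with neither mark. Within 10 kb there were 159 (10.6%), within 50 kb 620 (41.3%) and within 100 kb 910 (60.6%), and the median distance was 68.0 kb. The summits of 708 (47.2%) were inside a protein-coding gene. Most stood alone: 1323 had no other within 12.5 kb, while 69 pairs, 10 groups of 3 and 2 groups of 5 lay closer together. One group of 5 spans 22.7 kb of the Fto gene (chr8:91612572-91635244), and the other spans 12.1 kb outside coding genes, nearest to Ecel1 and Prss56 (chr1:87164206-87176292).

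The 12 regions of highest Mnx1 enrichment, described here because they were chosen for it, were spread over loci of quite different genes. The first, at 12.28, lies inside Ube3c, a ubiquitin ligase gene (chr5:29620190-29621106), 50.9 kb from its nearest end and 141.7 kb from the Mnx1 gene. The second, at 11.05, lies 32.1 kb from Hoxc4, a gene of the HoxC cluster that patterns the body axis (chr15:103068974-103069733). Regions inside Hecw2 at 10.56, Pcdh9 at 9.23 and Pitpnc1 at 9.15 followed, and regions outside coding genes nearest to Gpat3, Arhgap24, Dbh, Pou3f3, D1Pas1, Itpr1 and Kif13b at 10.88 to 9.45. The region at Dbh, the enzyme that makes noradrenaline, had an enrichment of 9.94 (chr2:27183640-27184330). It lay 0.4 kb from an end of that gene. Of the 12, 11 had H3K27ac in HD, the exception being that nearest to Gpat3.

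The Mnx1 gene had 3 of these regions nearest to it, with enrichments of 5.52, 4.66 and 3.07 at 18.3, 30.8 and 44.7 kb. With the 3 inside Ube3c, at 5.06, 12.28 and 6.13, they make 6 on the start site's side of Mnx1, the farthest beginning at 171.9 kb. All 6 had H3K27ac in HD. Ube3c RNA was 290 and 283 CPM in HD, 327 and 407 CPM in EH and 248 and 253 CPM in wild-type motor neurons. At the nicotinic receptor genes, Chrnb4 had regions at 18.3 kb (8.55, chr9:55067263-55068030) and 41.0 kb (5.98, chr9:55089916-55090708). Chrna3 and Chrna5, which encode other subunits of the same receptor family, lie beyond Chrnb4, at 40.7 and 55.8 kb from the nearer region.

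**Figure D3:**
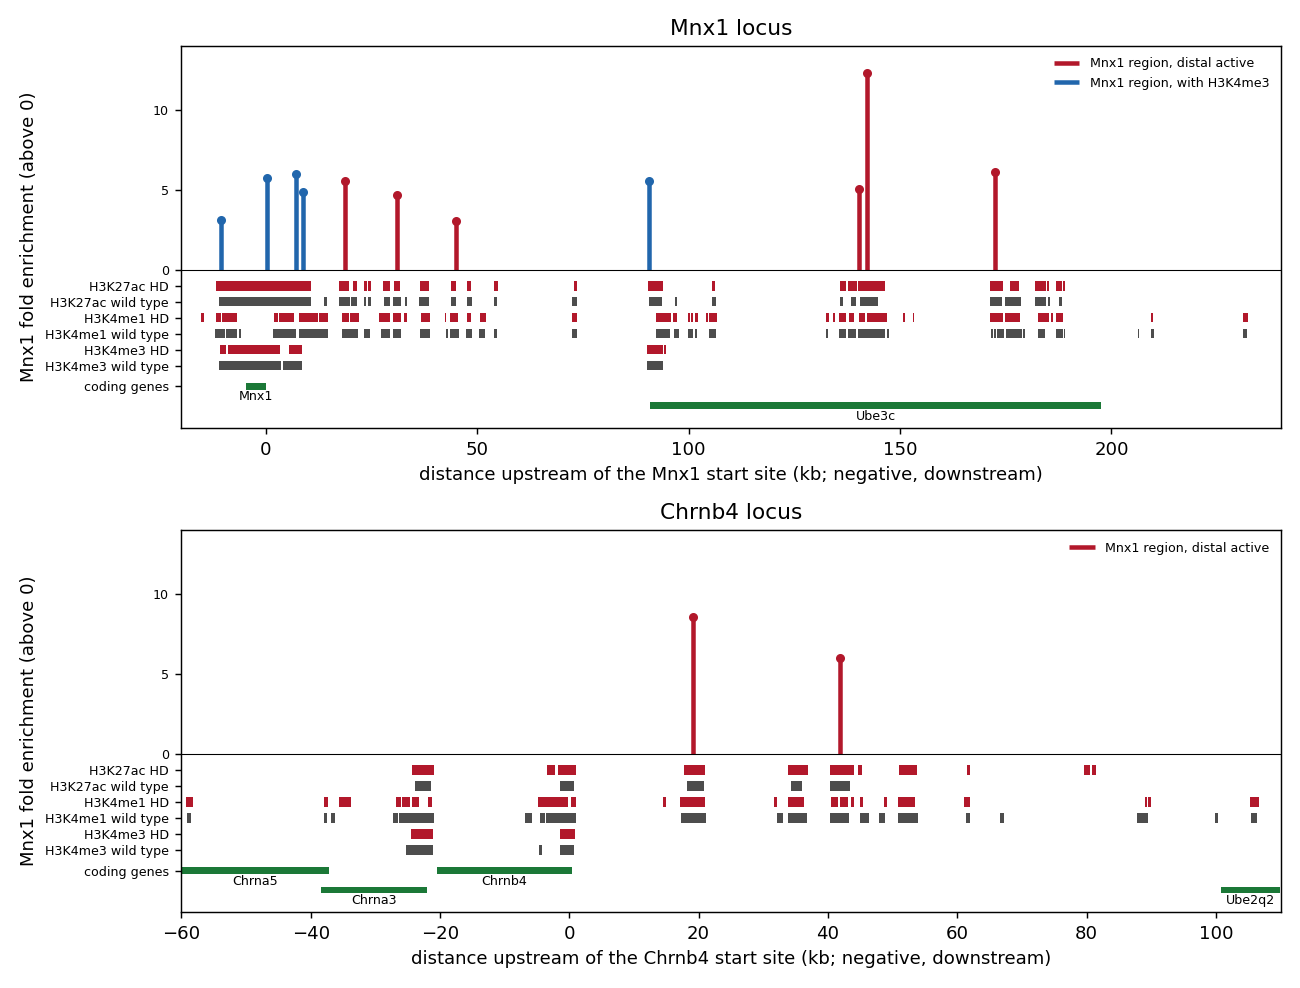
Mnx1 regions (stems, height is fold enrichment; red, distal active; blue, with H3K4me3) and regions of H3K27ac, H3K4me1 and H3K4me3 in HD (red boxes) and wild type (grey boxes) by distance upstream of the start sites of Mnx1 and Chrnb4 in kb. Of the 6 distal active regions at Mnx1 the highest, 12.28, lies inside Ube3c, and all of them, like both at Chrnb4, have H3K27ac in both genotypes.

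Genes with the most of these regions included Fto with 11, Nyap2 with 6, Pbx3 with 5, and Parg, Rere, Aff3, Cdh6 and Snx10 with 4 each. Fto is an RNA demethylase gene whose introns are known, in mouse, to hold elements that act on Irx3, and 9 of the 11 regions are inside it. Fto RNA was 153 and 143 CPM in HD, 136 and 150 CPM in EH and 142 and 144 CPM in wild-type motor neurons, with overlapping groups. Irx3, a homeobox gene 86.8 kb from the nearest of the 11, stood at 93.9 and 94.6 CPM in HD and 115 and 100 CPM in EH, against 162 and 139 CPM in wild-type motor neurons. On the log2 scale Irx3 differed by -0.68 ± 0.12 in HD (SE, edgeR adjusted p = 0.125) and -0.51 ± 0.12 in EH (SE, edgeR adjusted p = 0.0256); Irx3 was looked at for its place after values were seen. Pbx3, a homeobox cofactor of Hox proteins, rose in EH and had 357 and 350 CPM in HD and 229 and 315 CPM in EH, against 154 and 168 CPM in wild-type motor neurons. The fold change of Pbx3 on the log2 scale was 1.14 ± 0.15 in HD (SE, edgeR adjusted p = 0.0544) and 0.74 ± 0.15 in EH (SE, edgeR adjusted p = 0.0187). Nyap2, a phosphoprotein of neurons that acts in PI3K signalling, was at 70.7 and 65.4 CPM in HD, below the 122 and 99.5 CPM of wild type, and at 123 and 182 CPM in EH.

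To describe RNA, each region was given the protein-coding gene with the nearest end within 100 kb, which is a rule of position and not a measured target. This gave 717 genes for 910 regions, of which 701 were matched to the RNA tables, 633 were tested among motor neurons and 648 against ES cells. Most, 586, had 1 region, 88 had 2 and 43 had 3 or more, and 269 were also nearest to a Mnx1 region of another class. A gene only counted if its RNA was high enough to be tested, so 68 of the 701 are not described among motor neurons. The median level of the tested genes in wild-type motor neurons was 23.8 TPM (a level per transcript length), against 19.4 TPM over all 15565 genes tested. Library totals were 11167544 and 12435800 counts in HD, 39761579 and 39685395 in EH, 13916957 and 13899577 in wild-type motor neurons and 53223300 and 51304515 in ES cells.

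Far more of the genes near these regions were higher than lower in wild-type motor neurons against ES cells. The regions were chosen by Mnx1 and histone marks of wild-type motor neurons, so this tilt is not independent of the choice. Of 648, 441 rose (68.1%, against 38.8% of all genes tested) and 117 fell (18.1%, against 36.5%), by edgeR's quasi-likelihood test at an adjusted p of 0.05. The median log2 fold change was 1.60, and 0.02 over all 17770 genes tested. The shares that rose were 65.1% for genes with 1 region, 80.5% with 2 and 81.0% with 3 or more. For comparison, 56.8% of genes nearest to Mnx1 regions with neither mark rose, 42.5% of those with H3K4me3, and 56.3% of 1166 genes nearest to distal H3K27ac regions and to no Mnx1 region. On a scale of log2(TPM + 1) with limma, 494 rose (76.2%) and 73 fell (11.3%). Over all 17770 genes tested, 9043 rose and 4025 fell on that scale, and their median shifted to 0.43.

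The largest rises by fold change included Nyap2, Marchf4 and Lhx4. Nyap2 and Marchf4, a membrane ubiquitin ligase, had 0 counts in both ES libraries. Marchf4 stood at 72.0 and 74.0 CPM in wild-type motor neurons. Lhx4, a LIM homeodomain factor that specifies motor neurons, stood at 166 and 137 CPM in wild-type motor neurons, against 0 and 0.0220 CPM in ES cells, and its region lay 0.5 kb from an end of the gene. Clvs1, Gria2, Akap6, Kcnk10, Nwd2, Tenm2 and Siah3 were the others by the same rule, with fitted log2 fold changes of 10.72 to 12.55 that rest on counts near 0 in ES cells. Among the largest falls, Esrrb, a pluripotency factor, was at 11.4 and 11.6 CPM in wild-type motor neurons, against 675 and 401 CPM in ES cells, a log2 fold change of -5.54 ± 0.39 (SE, edgeR adjusted p = 4.5e-06). Etv4, an ETS factor, had 5.75 and 4.4 CPM in wild-type motor neurons, against 99.0 and 67.8 CPM in ES cells. Tnfsf11, Msc, Dpys, Sgk1, Adk, Ttc39b, Six4 and D1Pas1 made up the others, with log2 fold changes of -4.95 to -2.87.

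By the gene lists, 9 of 25 spinal motor neuron genes had one of these regions, 12 regions in all, and all 9 rose against ES cells, as did 24 of the 25 in the whole list. They include Mnx1, Nkx6-1, a ventral progenitor and motor neuron homeobox gene, and Slc18a3, the vesicular acetylcholine transporter. Slc18a3 stood at 422 and 390 CPM in wild-type motor neurons, against 0.898 and 0.529 CPM in ES cells, and its region lay inside Chat, the gene of the enzyme that makes acetylcholine (chr14:32443388-32444108, 6.02). Of 30 axon guidance genes 10 had a region, of 20 pan-neuronal genes 6, of 14 motor column genes 4, of 21 cadherins and protocadherins 4 and of 26 Hox genes 3. None of 13 V0, V1 and dI6 interneuron genes, 14 dorsal interneuron and sensory genes, 20 cell cycle genes or 13 endoderm genes had one. Over all 21887 protein-coding genes 717 had one, so a count of 0 or 1 in lists of this size carries little information. Of 20 pluripotency genes, Esrrb had 1 region, and of 14 trophoblast genes 1 had regions. Against wild type in EH, rises among the listed genes with a region numbered 3 of 9 for spinal motor neurons (0 falls), 3 of 10 for axon guidance (1 fall) and 2 of 6 for the pan-neuronal list (0 falls). Of all genes tested, 9.61% rose and 11.6% fell in EH, and of the 633 tested genes near these regions, 23.1% and 7.11%. Counts this small do not set the listed genes apart from the other near genes. Over the whole lists, with or without a region, edgeR called 9 of 25 higher and 0 lower in EH for spinal motor neurons, 11 and 6 of 29 tested for axon guidance, and 2 and 3 of 20 for the pan-neuronal list. In HD 0 of the genes with a region in these 3 lists passed by edgeR over 6 libraries, while over the whole lists 0 of 25, 2 of 29 and 1 of 20 were higher and 0 lower. Of all genes tested in HD, 0.135% were higher and 0.0385% lower.

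In the HD line few of these genes passed the test over 6 libraries, whose estimate of spread includes EH. That spread, edgeR's common coefficient of variation between libraries, was 0.1386, against 0.0794 over the 4 HD and wild-type libraries alone. Of 633 genes 4 rose (0.632%, against 0.135% of all genes tested) and 1 fell (0.158%, against 0.0385%) by edgeR over the 6 motor neuron libraries. Frzb, a secreted Wnt inhibitor with 2 regions at 14.9 and 15.4 kb, had 145 and 136 CPM in HD, against 27.4 and 36.6 CPM in wild-type motor neurons. Frzb rose by a log2 fold change of 2.13 ± 0.14 (SE, edgeR adjusted p = 0.0102). Chl1, an adhesion molecule of the L1 family with 1 region inside it, had 164 and 148 CPM in HD, against 34.7 and 42.4 CPM in wild-type motor neurons, a log2 fold change of 2.01 ± 0.14 (SE, edgeR adjusted p = 0.0102). The 1 that fell was Nwd2, with a log2 fold change of -2.57 ± 0.19 (SE, edgeR adjusted p = 0.0103). With any 1 HD or wild-type library left out, edgeR called 0 of all genes tested, the near genes included. Unadjusted p-values below 0.05 then numbered 76 near genes (11.9%, against 3.26% of all genes) without HD replicate 1 and 71 (11.1%, against 3.99%) without HD replicate 2. Without wild-type replicate 1 they numbered 64 (10.0%, against 3.59%), and without wild-type replicate 2, 83 (13.0%, against 3.59%). With all libraries, DESeq2 had 25 near genes higher (3.95%, against 0.938% of all genes) and 7 lower (1.11%, against 0.231%).

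Before adjustment more of the genes near these regions passed, as did more of all genes. At an unadjusted p under 0.05 in HD there were 131 of 633 (20.7%), against 5.6% of all genes tested. The same share was 22.2% of 483 genes nearest to Mnx1 regions with neither mark, 4.91% of 2829 with H3K4me3, and 10.2% of 1113 nearest to distal H3K27ac regions and to no Mnx1 region. Fitted on the 4 HD and wild-type libraries alone, edgeR called 50 of 623 higher (8.03%, against 1.71% of all genes tested) and 17 lower (2.73%, against 0.507%). In that fit 8.67% of genes nearest to regions with neither mark were higher and 2.33% lower, 1.84% and 0.496% with H3K4me3, and 4.11% and 0.730% at distal H3K27ac without Mnx1. The median log2 fold change of the 623 was 0.04.

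Named genes that passed in the 4-library fit of HD were of several kinds. Pbx3 had a log2 fold change of 1.14 ± 0.07 (SE, edgeR adjusted p = 0.000464), and Chrnb4, at 43.7 and 39.4 CPM in HD against 23.6 and 22.7 CPM in wild type, 0.84 ± 0.10 (SE, edgeR adjusted p = 0.00551). Cdh11, a type II cadherin, Gap43, a growth cone protein, Nhlh2, a neuronal bHLH factor, and Tenm2, a teneurin, were also higher, by 0.44 to 0.86 on the log2 scale. Lhx4 was lower, at 76.0 and 59.6 CPM in HD against 166 and 137 CPM in wild type, by a log2 fold change of -1.16 ± 0.14 (SE, edgeR adjusted p = 0.00531). Nyap2 at -0.71, Marchf4 at -0.40 and Esrrb at -0.85 were lower too. None of these 10 genes passed in the 6-library fit. Genes nearest to the regions without H3K27ac in HD were 57 tested in the 4-library fit. Of these, 2 were higher (3.51%, against 1.71% of all genes tested) and 1 lower (1.75%, against 0.507%).

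In the EH line many more of these genes passed over the 6 libraries, and more of them upwards than over all genes. The EH libraries held more counts than those of HD and wild-type motor neurons, and the part of depth in these numbers was not tested. Of 633, 146 rose (23.1%, against 9.61% of all genes tested) and 45 fell (7.11%, against 11.6%). The median log2 fold change was 0.21, and 0.00 over all genes tested, and 433 (68.4%) had a positive value. Genes nearest to regions with neither mark rose in 17.0% and fell in 9.32%, those with H3K4me3 in 11% and 8.17%, and those at distal H3K27ac without Mnx1 in 12.8% and 14.1%. These counts moved with the libraries, as did those over all genes. Without wild-type replicate 1, 7 near genes were higher (1.1%, against 0.294% of all genes) and 4 lower (0.627%, against 0.656%). Without wild-type replicate 2 there were 5 higher (0.784%, against 0.15%) and 3 lower (0.47%, against 0.449%). Without EH replicate 1 there were 287 higher (45.1%, against 18.1%) and 63 lower (9.89%, against 18.9%), and without EH replicate 2, 167 higher (26.2%, against 13.2%) and 78 lower (12.2%, against 14.2%). The median log2 fold change of the near genes stayed between 0.13 and 0.29 over these 4 fits. HD and EH are set against the same wild-type libraries, so their values are not independent of each other.

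**Figure D4:**
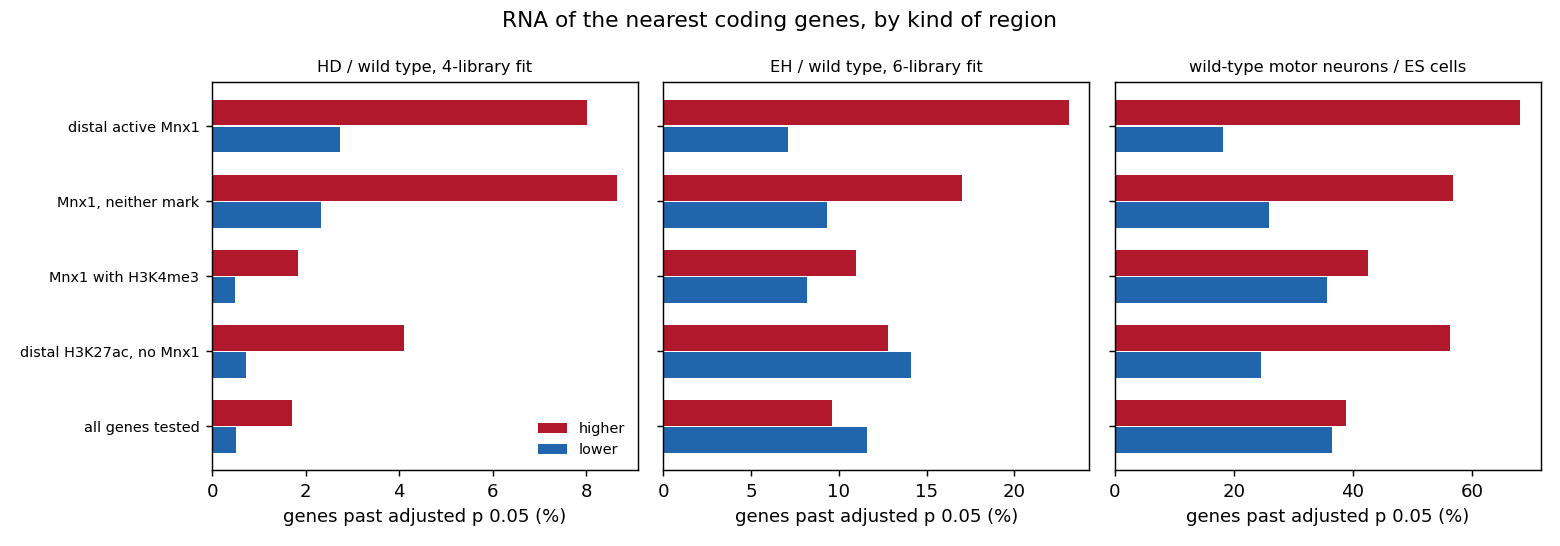
Share (%) of the nearest coding genes past an adjusted p of 0.05 that were higher (red) or lower (blue) in HD against wild type (fit of 4 libraries), EH against wild type (6 libraries) and wild-type motor neurons against ES cells (8 libraries), for each kind of region and for all genes tested. At distal active Mnx1 regions 8.03% were higher in HD, 23.1% in EH and 68.1% against ES cells, above all genes tested in each panel; the axes differ.

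Dbh, Th and Chrnb4 were among the largest rises in EH. Dbh had 4.52 and 3.85 CPM in EH and 1.21 and 1.08 CPM in HD, against 0.468 and 0.413 CPM in wild-type motor neurons, low in all groups. Its log2 fold change was 3.21 ± 0.31 in EH (SE, edgeR adjusted p = 0.00396) and 1.36 ± 0.36 in HD (SE, edgeR adjusted p = 0.414). Th, the rate-limiting enzyme of catecholamine synthesis, with 2 regions at 4.3 and 5.6 kb, had 155 and 274 CPM in EH and 49.7 and 43.6 CPM in HD, against 49.8 and 38.9 CPM in wild-type motor neurons. The EH libraries were above both other groups for Th, and HD and wild type overlapped. Its log2 fold change in EH was 2.25 ± 0.27 (SE, edgeR adjusted p = 0.0059).

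Chrnb4, a nicotinic receptor subunit, had 140 and 185 CPM in EH and 43.7 and 39.4 CPM in HD, against 23.6 and 22.7 CPM in wild-type motor neurons, with no overlap between the groups. Its log2 fold change in EH was 2.79 ± 0.15 (SE, edgeR adjusted p = 0.00243), and it passed in EH without any 1 library, with a highest adjusted p of 0.0422, while the other 9 of the 10 largest rises lost the call in at least 1 such fit. Its neighbours, chosen after values were seen, stood as follows. Chrna3 had 290 and 440 CPM in EH and 147 and 130 CPM in HD, against 102 and 93.5 CPM in wild type. Chrna5 had 32.4 and 47.9 CPM in EH and 40.5 and 41.9 CPM in HD, against 12.1 and 16.1 CPM in wild type. All 3 subunit genes were thus above wild type in every knockout library.

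Insc, Tnfsf11, Thsd7b, Adra1a, Nfe2, Adamts5 and Spp2 made up the rest of the 10 largest rises, with log2 fold changes of 2.16 to 3.09. Nfe2, a blood cell bZIP factor, reached 22.6 and 32.5 CPM in EH, against 6.49 and 4.54 CPM in wild type; the others stayed below 10 CPM in every motor neuron library. From the lists, Nhlh2 had 78.7 and 156 CPM in EH against 25.6 and 27.5 CPM in wild type, and Zeb2, a zinc finger repressor, had 56.2 and 61.9 CPM in EH against 23.4 and 19.2 CPM in wild type. Zeb2 rose by a log2 fold change of 1.45 ± 0.13 (SE, edgeR adjusted p = 0.00354). Sema3d, a secreted guidance cue, Nefm, a neurofilament, Gap43 and Nkx6-1 also rose, by 0.74 to 1.31 on the log2 scale. Slc18a3 had 324 and 403 CPM in EH against 422 and 390 CPM in wild type, with overlapping groups.

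The 10 largest falls in EH were those of Bcl11b, Cartpt, Grb10, Runx1, Ass1, Irx6, Myo1d, Ddr1, Sfmbt2 and Frzb. Runx1, a Runt transcription factor whose region lacked H3K27ac in HD, had 5.66 and 5.56 CPM in EH and 30.1 and 25 CPM in HD, against 19.2 and 15.0 CPM in wild-type motor neurons. Its log2 fold change was -1.63 ± 0.18 in EH (SE, edgeR adjusted p = 0.00498) and 0.68 ± 0.17 in HD (SE, edgeR adjusted p = 0.367). Frzb had 15.3 and 15.5 CPM in EH, below the 27.4 and 36.6 CPM of wild type, where HD was above it. Frzb fell in EH, with a log2 fold change of -1.07 ± 0.14 (SE, edgeR adjusted p = 0.00691). Grb10, an imprinted growth factor receptor adaptor, had 67.5 and 31.4 CPM in EH, against 151 and 161 CPM in wild type, and both EH libraries were below both of wild type. Nfia, a gliogenic factor, fell as well, by a log2 fold change of -0.81 ± 0.11 (SE, edgeR adjusted p = 0.00756).

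The EH cultures also held less of another cell type's RNA. The summed RNA of 14 trophoblast genes was 182 and 78.9 CPM in EH and 505 and 672 CPM in HD, against 604 and 642 CPM in wild-type motor neurons and 7.44 and 6.66 CPM in ES cells. Of 13 tested, 12 were lower in EH by edgeR over the 6 libraries, against 11.6% of all genes tested. Of these genes Elf5 had 2 of the regions, and it did not pass, with an edgeR adjusted p of 0.352. Summed cell cycle RNA was 1871 and 880 CPM in EH and 943 and 1004 CPM in HD, against 1188 and 1277 CPM in wild type. The part of these cells in the counts above was not tested; in bulk RNA, fewer cells of a type and less RNA per cell cannot be told apart.

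**Figure D5:**
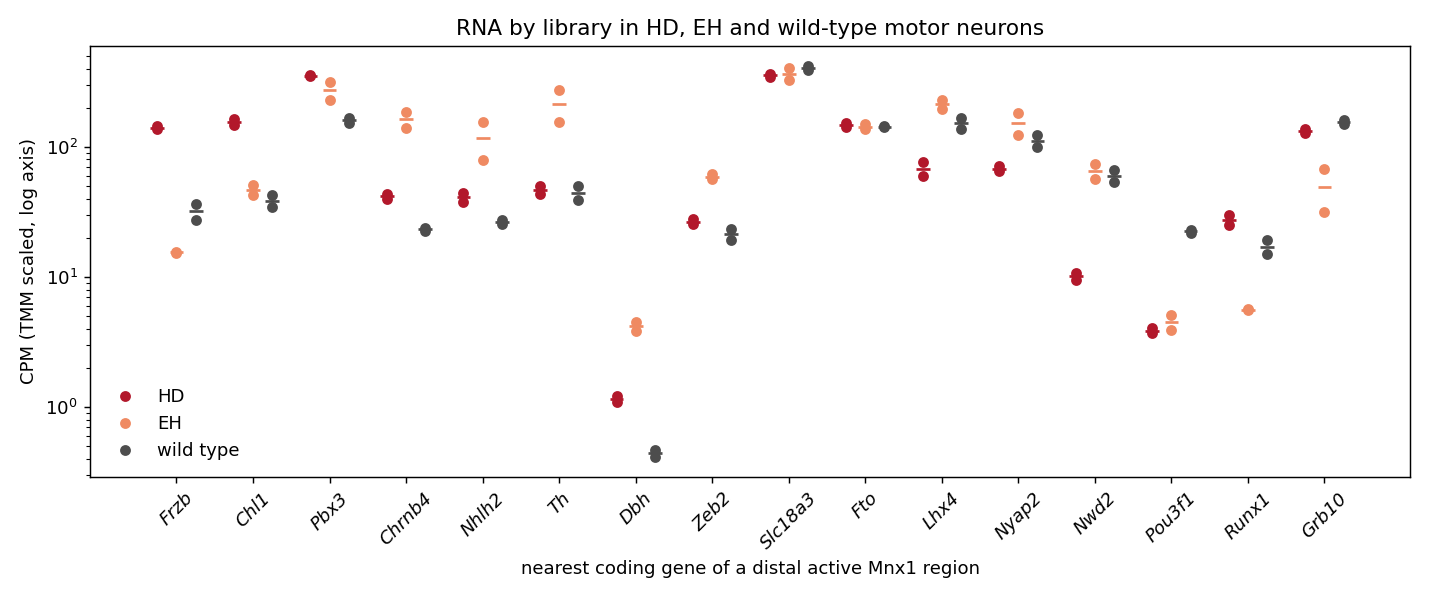
CPM (log axis) of 16 nearest genes in each HD, EH and wild-type motor neuron library; points are libraries, bars the mean of 2. Chrnb4 lay at 140 and 185 CPM in EH and 43.7 and 39.4 CPM in HD, above 23.6 and 22.7 CPM in wild type, while Frzb was above wild type in HD and below it in EH, and Nwd2 was low in HD.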

How the data were processed

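The tools named, per the submitters' processing notes, are MACS2, DESeq2, Subread, featureCounts, STAR, RSEM, SAMtools, Bowtie2 and Trim Galore, on the mm10 build and with no role stated for any; versions and thresholds are not given in the sources used here. The ChIP-seq files are peak lists as deposited, 1 per mark and genotype (2 libraries each, 1 for H3K9me3), with a fold enrichment, a -log10 q and a peak score that the authors' peak caller gave; whether libraries were pooled is not given in the sources used here. The RNA files hold expected counts and TPM per gene, as deposited by the authors in the layout of RSEM.

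After rounding the expected counts, edgeR 4.0.16 in R 4.3.3 gave the tests, which were quasi-likelihood F tests after a low-count filter and TMM scaling, with Benjamini-Hochberg adjustment over all genes tested. CPM values use the TMM-adjusted library totals. One fit of the 6 motor neuron libraries gave HD and EH against wild type, and a fit of all 8 libraries gave wild-type motor neurons against ES cells. DESeq2 1.42.0, limma 3.58.1 on log2(TPM + 1), no filter, a replicate block, each library left out and other distances and thresholds were alternatives; limma and the crossed block were added after seeing the data. On simulated data with 200 changed genes, 73% of 2-fold and 99% of 4-fold changes were recovered for HD among 15565 genes with 5 false calls, 77% and 100% for EH with 13, and 84% and 99% against ES cells among 17770 genes with 10. The changed genes were drawn from those with higher counts, and every group was simulated with the same spread. The real groups differ in spread, so these rates may not hold for the real libraries. Regions counted as overlapping from 1 shared base, and each was given the RefSeq coding gene with the nearest end within 100 kb. A motif search around region summits was planned and not run, as no genome sequence was used here.

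The members and gene lists were chosen with earlier results of these data known. Genes named are Mnx1, the nearest genes of the 12 most enriched regions, the 10 with most regions (without provisional names), up to 10 per direction and comparison with the largest change past an adjusted p of 0.05 and groups that do not overlap, with a mean of at least 1 CPM in the higher group (5 against ES cells), and up to 3 per gene list. Irx3, Chrna3, Chrna5, Chat, Dct, Ctbp2 and the genes beside regions without H3K27ac in HD were taken after their values were seen. Some genes that the rule takes are not reported here. Library totals of 11167544 to 53223300 counts and 2 libraries a group limit the precision.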

Additional observations from a re-analysis of the deposited data

Results flagged for a closer look

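The HD and EH lines differed directly from each other at 40 of the genes described, by edgeR's quasi-likelihood test over the 6 motor neuron libraries with an adjusted p of 0.0498 or less; log2 fold changes below are of HD over EH. Over all 15565 genes tested, the same test called 1835 higher and 1468 lower in HD than in EH at an adjusted p of 0.05. Many of the 40 were named for a large change against wild type in these same libraries. Differences between the lines at such genes are not independent of that choice. The 2 lines differ in depth, and the part of that in these differences was not tested. Among genes higher in HD, Frzb differed by 3.21, Irx6 by 2.62, Dct by 2.60, Runx1 by 2.31 and Bcl11b by 2.08. Chl1 followed at 1.76, Gpat3 at 1.73, Cartpt at 1.58, Grb10 at 1.43 and Ass1 at 1.40. Ddr1 at 1.16, Myo1d at 1.15, Nfia at 0.97, Gria2 at 0.73 and Pcdh9 at 0.53 were the others.

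Among genes lower in HD than in EH, Adra1a differed by -3.22, Nfe2 by -2.77, Insc by -2.75, Nwd2 by -2.66, Thsd7b by -2.20 and Th by -2.18. Chrnb4 stood at -1.95, Dbh at -1.85, Lhx4 at -1.63, Sema3d at -1.52, Nhlh2 at -1.50, Chrna3 at -1.38, Esrrb at -1.37 and Adamts5 at -1.33. Nyap2 at -1.15, Zeb2 at -1.13, Hecw2 at -1.07, Cdh6 at -1.01 and Marchf4 at -1.0 came next. The smallest differences were those of Ttc39b at -0.98, Sgk1 at -0.96, Six4 at -0.89, Mnx1 at -0.61, Kif13b at -0.47 and Parg at -0.30.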

How the results depend on the processing

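The number of regions was 880 with an Mnx1 -log10 q of at least 10. H3K27ac in HD covered 92.5% of these 880. With a -log10 q of at least 3 for H3K27ac, it covered 94.88% of 1290 regions. It covered 87.89% of 1330 regions with 0.5 of the region covered and 86.57% of 1325 at the summit. In these last settings H3K4me1 covered 92.33% and 88.75% in HD and 95.34% and 92.38% in wild type. With all genes in place of coding genes, 56.56% of the 1501 lay inside a gene and 9.26% within 2 kb of an end. For HD, DESeq2 gave 25 higher and 7 lower, no filter 19 and 5, no distance limit 9 and 2, the 4 libraries alone 50 and 17, all coding genes within 100 kb 2 lower, and an Mnx1 -log10 q of at least 10 gave 2 higher. Leaving out any 1 HD or wild-type library gave 0 in either direction for HD, near genes and all genes alike (edgeR; 64 to 83 near genes at an unadjusted p under 0.05), and leaving out any 1 EH or wild-type library gave EH 5 to 287 higher and 3 to 78 lower. For EH, 76 were lower with no distance limit, 227 were higher and 127 lower with all coding genes, 92 were higher at the stricter q and 26 lower in 4 libraries. Against ES cells 789 were higher and 362 lower with all coding genes, 283 higher at the stricter q, and 73 lower with limma. Parg (0.34) and Fgfr1 (0.19) reversed against ES cells under limma, where the median of all genes shifted to 0.43; the cause was not tested. The 132 named results were each fitted under several settings. Counted per fit, under settings other than leaving out a library, 37 lost significance, 26 gained it, 2 reversed and 564 were unchanged. Fits without a library, which leave 1 library in a group, lost significance more often. The labels do not pair replicate numbers: their deviations correlated at 0.358 for HD and wild type and -0.206 for EH and wild type. With the replicate block, HD had 0 higher and 0 lower (114 at an unadjusted p under 0.05) and EH 100 and 30. The crossed block, chosen after seeing the data, gave EH 187 and 55. Each histone list is single, so shares have no replicate error, and marks below the callers' thresholds are not listed.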
